A study of Homo sapiens with 2 samples.

Results

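The ATF4 stress regulators studied here are 10 genes: the transcription factors ATF4, ATF3, ATF5, DDIT3, CEBPB and CEBPG and the stress-induced regulators TRIB3, CHAC1, DDIT4 and SESN2. The members were chosen by name, as all probe sets annotated to these genes, and the choice was made with the difference between the arrays already known, so every count and size for them is a description and no support for anything. All 10 were measured, among 12541 measured genes, through 18 of the 54613 human probe sets. RNA was taken from K562 cells, a human chronic myeloid leukaemia line, and each of 2 groups holds 1 Affymetrix array. The PML4 group (PML4-K562) had received a retrovirus that overexpresses PML4, 1 of the isoforms of promyelocytic leukaemia protein. The control group (PMSCV-K562) had received the control vector pMSCV. Both were selected with G418 for 3 weeks, and the labels do not say whether the selected cells were a pool or a clone. The design sets the transcript levels of PML4 cells against those of vector cells.

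ATF4 is the effector of the integrated stress response. Kinases that sense amino acid shortage, misfolded protein in the endoplasmic reticulum, viral RNA or heme shortage phosphorylate the initiation factor eIF2alpha, which slows general translation but favours translation of the ATF4 mRNA through its upstream reading frames, so that ATF4 protein can change without a like change in its mRNA. ATF4 then pairs with C/EBP proteins on C/EBP-ATF response elements and induces further transcription factors and feedback regulators. In K562 and other erythroid cells the heme-regulated kinase EIF2AK1 ties this response to heme supply.

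Values are MAS5 signals on a linear scale. The mean over all probe sets without the lowest and highest 2% was 500.1 on the PML4 array and 500.0 on the control array. Scaling both arrays to a common target gives such equal means, so they are not read as a likeness of the samples. No scaling step is given in the sources used here. The floor, the median human signal over both arrays, was 72.4, and 48.1% of human probe sets lay above it on the PML4 array and 51.9% on the control array. Lower signals were set to the floor, and each difference is the log2 signal on the PML4 array less that on the control array. Genes at least 2-fold apart were called. Each group has 1 array, so no difference has a replicate error and none was tested. The spread at hand is that between probe sets of the same gene, a median gap of 0.30 on the log2 scale over 19460 pairs, and it holds no error of arrays or of cultures. PML, the overexpressed gene, was read by 10 probe sets whose PML4 to control ratio ran from 0.169 to 7.12, so they do not settle the label one way. The 3' to 5' signal ratios of the integrity controls were 1.53 on the PML4 array and 1.55 on the control array for GAPDH, and 2.80 on the PML4 array and 2.94 on the control array for ACTB. Of 12 K562 markers, 10 were measured and all 10 lay above the floor on both arrays, with summed signals of 88499 on the PML4 array and 61168 on the control array. Of these 10, 8 were higher and 2 lower with PML4, with a median difference of 0.42. The embryonic globin HBZ was the only call, at 5465.5 on the PML4 array and 1401.4 on the control array, 3.90-fold higher, and it kept that call in 8 of 8 alternatives. TFRC, the transferrin receptor, KIT, the stem cell factor receptor, and HBE1, epsilon-globin, had differences of 0.84, 0.66 and 0.44. The erythroid transcription factors GATA1 and KLF1 had differences of 0.27 and 0.06, and TAL1 and LYL1 of -0.53 and -0.31, with GATA1 and TAL1 each split in direction between 2 probe sets. Of 29 markers of T cells, B cells, monocytes, fibroblasts and epithelial cells, 10 were measured. The summed signals of the measured T cell markers (2 of 7) were 70.7 on the PML4 array and 267 on the control array. Those of B cells (1 of 5) were 171 with PML4 and 206 with the control vector, from CD79A alone, and those of fibroblasts (2 of 7) 336 with PML4 and 513 with the control vector, mostly from the collagen COL1A1. Monocyte markers (3 of 5) summed to 3920 with PML4 and 3961 with the control vector, mostly from LYZ, whose 2 measured probe sets differed in direction, beside ITGAM at 742.6 with PML4 and 678.5 with the control vector. Epithelial markers (2 of 5) summed to 9302 with PML4 and 7233 with the control vector. Of these, the keratin KRT19 was at 3098.8 with PML4 and 1362.8 with the control vector, 2.27-fold higher and called in 8 of 8 alternatives, while EPCAM was at 6203.1 with PML4 and 5870.4 with the control vector. CD3E, CD5, CSF1R and DCN passed the floor only on the control array and so could only come out lower, among them both measured T cell markers. The other 19 markers had no signal above the floor or no probe set of their own. No marker was at 0. The part of these markers in the differences below was not tested.

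All 10 regulators had a lower signal on the PML4 array, and 6 of them were at least 2-fold lower. These 6 were CHAC1, DDIT4, ATF5, DDIT3, TRIB3 and ATF3, and none of the 10 was called higher. Over all genes 3.21% were at least 2-fold lower with PML4, 402 genes, and 1.23% were at least 2-fold higher, 154 genes. That split was 281 lower and 196 higher after quantile normalization and 265 and 201 after loess centring. A lower signal of any size was found in 55.3% of genes. The median difference of the 10 was -1.37 on the log2 scale, a 2.59-fold lower signal, beside -0.05 over all genes. Of the 10, 4 were at least 3-fold lower, as were 0.47% of all genes. The sizes, each from the probe set that stands for the gene, ran from 1.57-fold for ATF4 to 5.19-fold for CHAC1. All 10 were thus lower by more than 1.5-fold in that probe set, a size reached by 11.8% of genes. With the mean over probe sets the smallest was CEBPG, at -0.44 on the log2 scale, short of 1.5-fold. Because the genes were picked from these same differences, nothing is read from these shares. ATF3, at 2.43-fold lower, was the called gene nearest the threshold, and SESN2, at 1.96-fold lower, the nearest one outside it. In bulk RNA, fewer cells with a transcript and less of it in each cell cannot be told apart.

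**Figure D1:**
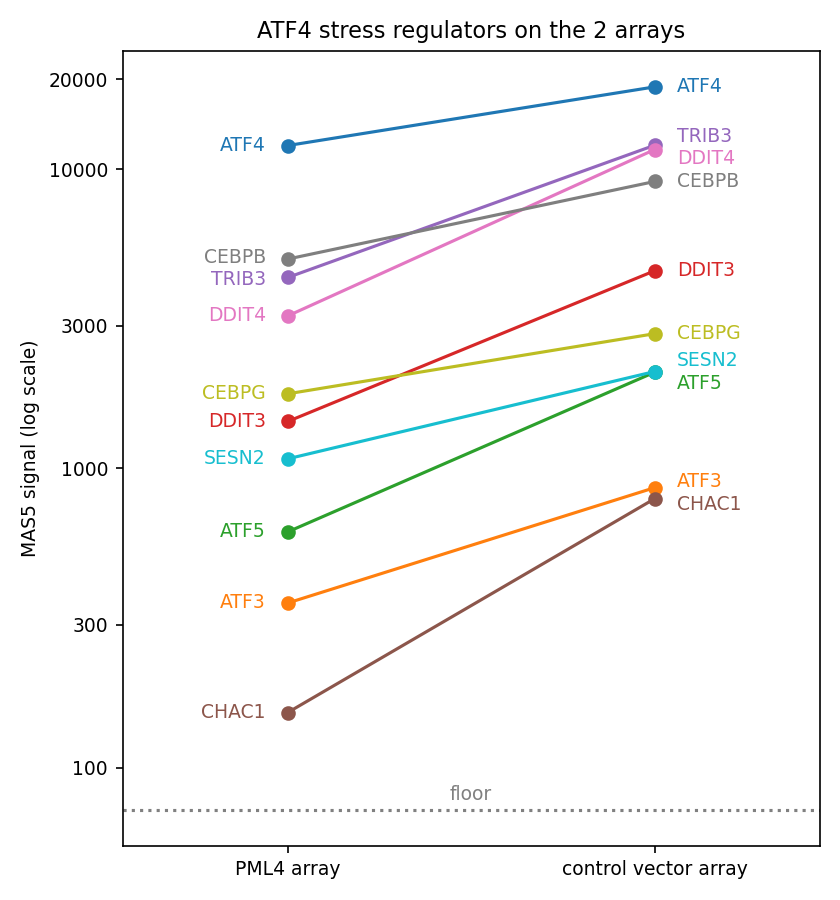
MAS5 signal (log scale) of the probe set that stands for each of the 10 regulators on the PML4 array (left) and the control vector array (right), 1 array each, with the floor of 72.4 as a dotted line. All 10 lines are lower on the PML4 side, most steeply for CHAC1, at 152.8 against 792.3.

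ATF4 itself, the bZIP factor at the head of the group, had a signal of 12011.1 on the PML4 array and 18865.1 on the control array in its only probe set. It was thus at 63.7% of the control signal, a 1.57-fold lower value. That was the smallest difference of the 10 by the probe sets that stand for the genes. Of all measured genes 9.76% were lower by as much, and so were 82 of the 3135 genes in the quartile of highest signal.

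ATF5, a bZIP factor of the same subfamily as ATF4 whose mRNA is also translated under stress, was lower in each of its 3 measured probe sets. Its signal was 613.8 on the PML4 array and 2097.6 on the control array, 3.42-fold lower. A second probe set, 204999_s_at, read 291.3 on the PML4 array and 1212.0 on the control array, 4.16-fold lower. Another, 230938_x_at, lay close to the floor on both arrays, at 87.1 with PML4 and 119.7 with the control vector. The last, 217389_s_at, was under the floor on both, at 55.5 with PML4 and 9.1 with the control vector, and was not counted as measured. The probe sets clear of the floor gave differences past the threshold, and the dim one did not.

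ATF3, a stress-induced bZIP factor that acts mostly as a repressor, had a signal of 355.0 on the PML4 array and 862.5 on the control array, 2.43-fold lower. Its other probe sets showed smaller differences in the same direction. The probe set 1554980_a_at was at 132.9 with PML4 and 215.1 with the control vector, 1.62-fold lower. The probe set 1554420_at was at 56.0 with PML4, under the floor, and at 97.0 with the control vector, so its 1.34-fold difference is a lower bound. The call of ATF3 rests on 1 probe set of 3: the mean difference over all 3 was -0.80 (log2), short of the threshold.

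DDIT3 encodes CHOP, a C/EBP-family protein that forms dimers with other bZIP factors and is induced by ATF4. Its signal was 1435.9 on the PML4 array and 4580.0 on the control array, in 1 probe set, a 3.19-fold lower value. It ranked 44th from the lowest of the 12541 differences, and 2 genes in the quartile of highest signal, itself included, were lower by as much.

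CEBPB and CEBPG, C/EBP proteins that can pair with ATF4 and CHOP, were lower by less than 2-fold. CEBPB, which also drives differentiation genes in myeloid cells, was at 5012.6 on the PML4 array and 9106.5 on the control array, 1.82-fold lower. CEBPG, which lacks a strong activation domain of its own, was at 1776.6 with PML4 and 2821.7 with the control vector, 1.59-fold lower. Its second probe set, 204203_at, was at 1135.4 with PML4 and 1317.4 with the control vector, 1.16-fold lower, the smallest difference among the 17 measured probe sets. Both C/EBP partners differed by sizes near that of ATF4 and below that of CHOP.

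Among the feedback regulators, TRIB3, a tribbles pseudokinase that binds ATF4 and CHOP and can restrain them, was 2.77-fold lower. Its signal was 4349.6 on the PML4 array and 12036.6 on the control array. Its second probe set, 1555788_a_at, was at 281.8 with PML4 and 1206.7 with the control vector, 4.28-fold lower. Both probe sets of TRIB3 were past the threshold, and they lay 0.63 apart on the log2 scale.

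CHAC1, an enzyme that breaks down glutathione and is induced by ATF4, ATF3 and CHOP, showed the largest difference of the 10. Its signal was 152.8 on the PML4 array and 792.3 on the control array, 5.19-fold lower, and it has 1 probe set. It ranked 4th from the lowest of all genes. The PML4 signal was near the floor: with the floor raised to the 75th percentile of all signals the difference was -0.77 (log2), a bound that falls short of the threshold.

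DDIT4 (REDD1) and SESN2 both restrain mTORC1, the kinase complex that promotes protein synthesis, DDIT4 through the TSC complex and SESN2 as a leucine-binding inhibitor of GATOR2. DDIT4 was at 3236.0 on the PML4 array and 11645.4 on the control array, 3.60-fold lower in 1 probe set. No other gene in the quartile of highest signal was lower by as much. SESN2 was at 1077.0 on the PML4 array and 2109.1 on the control array, 1.96-fold lower. Its second probe set, 223196_s_at, was at 787.0 with PML4 and 1392.1 with the control vector, 1.77-fold lower. The probe sets of SESN2 lay closest together of all members with more than 1, at 0.15 apart.

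**Figure D2:**
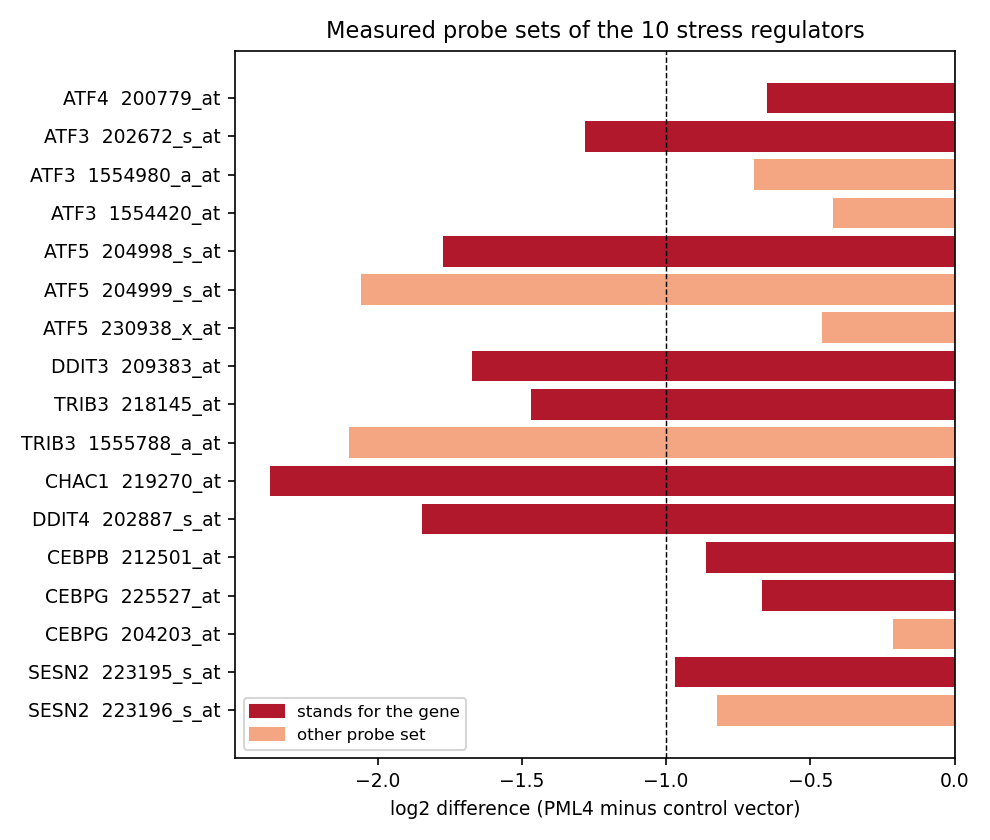
Log2 difference, PML4 minus control vector, for each of the 17 measured probe sets of the 10 regulators, with the 2-fold threshold as a dashed line and the probe set that stands for the gene in dark red. All 17 bars are below 0 and 8 pass the threshold, while ATF3, ATF5 and CEBPG each have a probe set with a difference smaller than 0.5.

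Across probe sets, 17 of the 18 were above the floor on at least 1 array, and 16 on both. All 17 measured ones were lower with PML4, 8 of them by at least 2-fold, beside 3.22% of the 29370 measured probe sets at that size and 56.9% lower by any size. Of the 5 regulators with several measured probe sets, none had probe sets of opposite direction. The largest gap was that of ATF5, 1.60 on the log2 scale between its second and a dim probe set.

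Large and small differences both occurred among probe sets of high signal. Of the 10 regulators, 6 lay in the quartile of highest mean signal: ATF4, CEBPB, CEBPG, TRIB3, DDIT4 and DDIT3. In that quartile 0.702% of genes, 22 of 3135, were at least 2-fold lower, and DDIT4, DDIT3 and TRIB3 were 3 of these 22. CHAC1 and ATF3 lay in the second quartile from below, nearer the floor, and 54 of its 3135 genes were as low as ATF3.

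**Figure D3:**
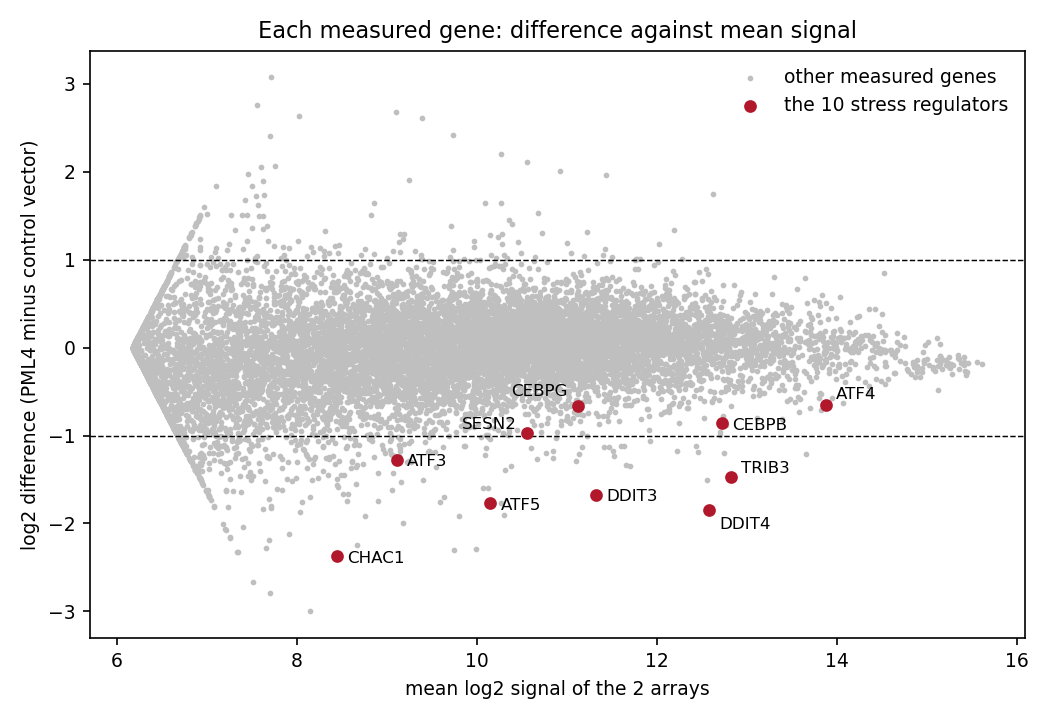
Log2 difference, PML4 minus control vector, against the mean log2 signal of the 2 arrays, for 12541 measured genes (grey) with the 10 regulators in red and the 2-fold thresholds dashed. The regulators lie toward or beyond the lower edge of the cloud at their own signal, and 6 of them lie below the lower threshold.

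The promoters of the 10 genes were read for the C/EBP-ATF response element, on which ATF4 and its partners bind. RefSeq gives 19 windows for them in GRCh38.p14, each of 300 bases, from 250 before to 50 after an annotated start. Some windows of a gene overlap. The letters TGATGNAA were searched on both strands, as was the full cAMP response element TGACGTCA, and no match overlapped another. The first was present in 3 of the 19 windows, in 1 window each of CHAC1, CEBPG and ATF3. It was present in 3.62% of all 35116 windows, and in 2.72% of the 10153 measured genes that have a window. The second was in none of the 19, beside 1.85% of all windows. The 10 genes were picked as ATF4 stress regulators, so nothing is read from these shares. The windows with a match are shown 5' to 3' with the matched bases in capitals.
CHAC1, chr15:40953221-40953520, plus strand: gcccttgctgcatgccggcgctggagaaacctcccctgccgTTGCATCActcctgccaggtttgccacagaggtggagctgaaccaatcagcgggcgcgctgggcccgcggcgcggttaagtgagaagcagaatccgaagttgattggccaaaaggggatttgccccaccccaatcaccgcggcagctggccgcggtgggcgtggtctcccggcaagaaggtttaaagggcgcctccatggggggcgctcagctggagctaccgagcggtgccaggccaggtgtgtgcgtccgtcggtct
CEBPG, chr19:33373863-33374162, plus strand: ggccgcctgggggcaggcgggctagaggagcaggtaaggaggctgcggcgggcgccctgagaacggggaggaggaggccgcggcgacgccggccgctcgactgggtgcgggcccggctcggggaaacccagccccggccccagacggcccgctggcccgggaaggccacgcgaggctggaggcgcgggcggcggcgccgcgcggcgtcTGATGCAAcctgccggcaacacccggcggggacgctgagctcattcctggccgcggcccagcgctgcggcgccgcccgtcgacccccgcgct
ATF3, chr1:212565157-212565456, plus strand: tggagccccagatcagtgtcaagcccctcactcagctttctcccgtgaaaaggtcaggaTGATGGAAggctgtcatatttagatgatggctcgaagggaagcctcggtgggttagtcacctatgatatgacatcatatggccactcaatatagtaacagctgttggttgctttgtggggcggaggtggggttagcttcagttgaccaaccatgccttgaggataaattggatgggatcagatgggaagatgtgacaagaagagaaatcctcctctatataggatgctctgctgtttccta
In CHAC1 the match lies on the opposite strand and begins 209 bases before the start, and read on its own strand it is TGATGCAA. CEBPG holds the same 8 letters on the strand of the gene, 42 bases before the later of its annotated starts, inside a window of 79.7% G and C. The ATF3 match, TGATGGAA, lies 191 bases before the more upstream of its annotated starts, in a window of 48.0% G and C. The genes with a match included the largest difference, that of CHAC1, and one of the smallest, that of CEBPG. A match is a string of letters and not a bound site, and elements outside these windows were not read.

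Upstream of ATF4, the eIF2alpha kinases, the phosphatase subunits and their regulators showed no call. Of 22 genes listed and measured, 13 were lower and 9 higher, with a median of -0.05 on the log2 scale beside -0.05 over all genes. Over all genes 55.3% were lower by any size, 3.21% were called lower and 1.23% called higher. The heme-regulated kinase EIF2AK1 was at 10450.4 with PML4 and 14077.1 with the control vector, a log2 difference of -0.43, while its other measured probe set was higher. The ER kinase EIF2AK3 (PERK) was at 1144.3 with PML4 and 812.1 with the control vector, at 0.49. The amino acid sensor EIF2AK4 (GCN2) and the RNA-activated EIF2AK2 (PKR) had differences of -0.20 and -0.04. PPP1R15A (GADD34), the stress-induced phosphatase subunit and itself a known ATF4 and CHOP target, was at 2063.4 with PML4 and 1928.6 with the control vector, and its other measured probe set was lower. EIF2S2, the beta subunit of eIF2, and PPP1CC, a catalytic phosphatase subunit, had differences of -0.24 and -0.10. The lowest value of this list was that of DELE1, a mitochondrial protein that relays stress to EIF2AK1. It was at 666.2 with PML4 and 1239.4 with the control vector, a difference of -0.90. The highest was that of EIF2S1 (eIF2alpha), at 4559 with PML4 and 3112.3 with the control vector, a difference of 0.55. Of the 3 measured probe sets of EIF2S1, 2 were lower. Both DELE1 and EIF2S1 were named after their values were seen.

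Downstream, metabolic and transport genes induced by ATF4 were mostly lower, with a median difference smaller than that of the regulators. Of 30 listed genes 27 were measured, 26 were lower and 6 at least 2-fold lower, with a median of -0.52. Of all genes 55.3% were lower and 3.21% at least 2-fold lower. Of the 27, 24 lay above the floor on both arrays. The others, SLC7A3, SLC6A9 and NUPR1, passed it only on the control array and so could only come out lower. ALDH1L2, a mitochondrial folate enzyme, had 115.5 on the PML4 array and 500.9 on the control array. It was 4.34-fold lower, a larger size than that of any regulator except CHAC1. SLC7A11, the cystine transporter, had 2088.1 on the PML4 array and 5297.6 on the control array, 2.54-fold lower. The amino acid enzymes ASNS and PHGDH were 2.31-fold and 2.28-fold lower. The other calls were CTH, an enzyme of cysteine synthesis, and STC2, a secreted glycoprotein, which kept its call in 2 of 8 alternatives. GDF15, a secreted stress cytokine, was at 4730.4 on the PML4 array and 9390.1 on the control array, 0.99 lower on the log2 scale. MTHFD2, a mitochondrial folate enzyme, and SLC38A2, an amino acid transporter, had differences of -0.57 and -0.24. ALDH18A1, an enzyme of proline synthesis, was the only measured one that was higher, at 942.9 with PML4 and 738.5 with the control vector. The list was put together with earlier results of these data known.

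CHOP targets in cell death and redox balance went in both directions. Of 9 measured, 3 were lower and 6 higher, with a median of 0.10. At 2-fold 1 was called in each direction, beside 3.21% of all genes called lower and 1.23% called higher. TNFRSF10B, the death receptor DR5, was at 1688.1 on the PML4 array and 3385.2 on the control array, 2.01-fold lower, and it passed the threshold in 5 of 8 alternatives. PMAIP1 (NOXA), a pro-apoptotic protein, had a difference of -0.78. BCL2, an anti-apoptotic protein that CHOP is known to repress, was at 291.4 with PML4 and 113.7 with the control vector, 2.56-fold higher, while its other measured probe set was slightly lower. The call of BCL2 held in 6 of 7 alternatives. ERO1A, an ER oxidase, and BCL2L11 (BIM) had differences of 0.33 and 0.04, with 5 of the 7 measured probe sets of BCL2L11 lower. DNAJA3, a mitochondrial co-chaperone, had a difference of -0.20.

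The other branches of the unfolded protein response differed less. Of 23 measured genes of the ATF6 and IRE1 branches, 18 were lower, with a median of -0.25, beside 55.3% of all genes lower. At 2-fold 1 of them was called lower, beside 3.21% of all genes. At 1.5-fold 5 of them were called lower and 0 higher, beside 11.8% of all genes lower by that size. The only call was SEC24D, a subunit of the vesicle coat that exports proteins from the ER, at 251.8 with PML4 and 646.8 with the control vector, 2.57-fold lower, a call kept in 6 of 8 alternatives. HSPA5 (BiP), the main ER chaperone, was at 4990.0 with PML4 and 6050.4 with the control vector. DNAJB9, a chaperone induced through IRE1 and XBP1, was at 2221.0 with PML4 and 2002.5 with the control vector, while 2 of its 3 measured probe sets were lower. The folding enzyme PDIA6 had a difference of -0.25. SSR1 and SEC61B, parts of the translocation machinery of the ER, had differences of -0.21 and 0.14, and the probe sets of both split evenly in direction. The transcription factor XBP1 itself had a difference of -0.83.

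Among 37 other measured bZIP factors, 23 were lower and 14 higher, with a median of -0.10. At 2-fold 1 was called lower and 2 higher, beside 3.21% and 1.23% of all genes. A lower signal of any size was found in 55.3% of all genes. JDP2, a close relative of ATF3, was at 276.2 on the PML4 array and 590.7 on the control array, 2.14-fold lower, and its other probe set was lower too. BATF and ATF7 were called higher, BATF at 398.5 with PML4 and 193.9 with the control vector and ATF7 at 942.7 with PML4 and 469.6 with the control vector. The 3 measured probe sets of ATF7 did not share a direction. BATF kept its call in 6 of 7 alternatives, ATF7 in 6 of 8 and JDP2 in 6 of 8, and with a pseudocount of 32 no factor of the list was called higher. JUND, NFE2L2 and NFE2 had differences of 0.45, 0.09 and 0.55, with 1 of the 3 measured probe sets of JUND lower. CEBPA and CEBPE lay under the floor on both arrays, and CEBPD, at 1251.9 with PML4 and 938.9 with the control vector, had a difference of 0.42.

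The paralogues of the 10, which share their folds but are not all ATF4 targets, held 1 call. Of 11 listed, 8 were measured, 4 lower and 4 higher, with a median of 0.08. Of all genes 3.21% were called lower and 1.23% called higher. The call was JDP2, described above. TRIB2 was at 7079.4 with PML4 and 6177.0 with the control vector, beside the 2.77-fold lower TRIB3, and TRIB1 had a difference of 0.19. CHAC2, the constitutive relative of CHAC1, was at 1302.3 with PML4 and 934.7 with the control vector. SESN1 was at 964.3 with PML4 and 985.9 with the control vector, a difference of -0.03. DDIT4L was under the floor on both arrays.

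**Figure D4:**
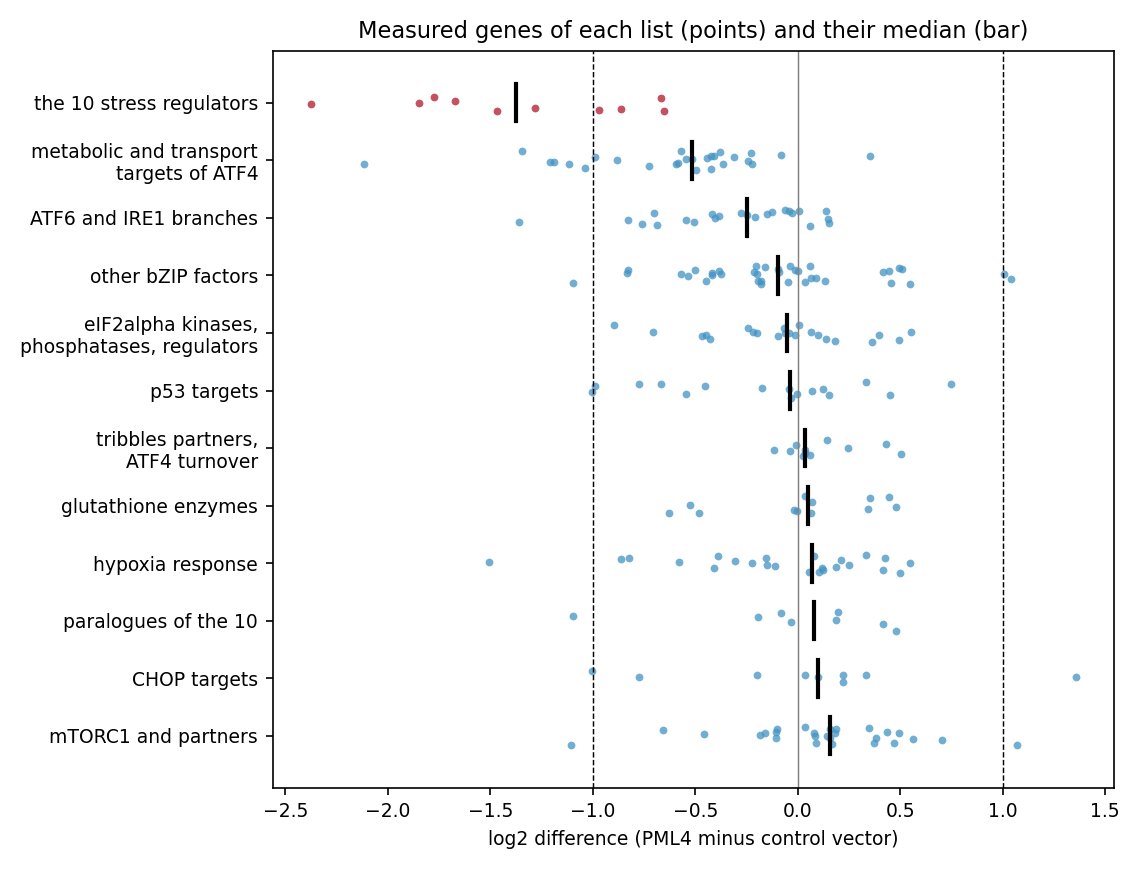
Log2 difference, PML4 minus control vector, of the measured genes in each list (points) with the list's median (black bar) and the 2-fold thresholds dashed. The median of the 10 regulators is at -1.37 and that of the ATF4 targets at -0.52, while the medians of the other 10 lists lie between -0.25 and 0.16.

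For lists tied to the functions of single members, the counts stand beside 3.21% of all genes at least 2-fold lower and 1.23% at least 2-fold higher. Of 27 measured genes of mTORC1 and its regulators, the pathway that DDIT4 and SESN2 restrain, 8 were lower and 19 higher, with a median of 0.16, and 1 was called in each direction. AKT1S1 (PRAS40), an mTORC1 inhibitor, was at 671.4 with PML4 and 320.1 with the control vector, and KICS2, a subunit of the KICSTOR complex, was at 384.6 with PML4 and 828.0 with the control vector. AKT1S1 kept its call in 5 of 8 alternatives and KICS2 in 6 of 8. RHEB, the GTPase that activates mTORC1, had a difference of -0.16, and SEH1L and LAMTOR5, subunits of GATOR2 and Ragulator, of 0.16 and 0.14, all 3 with probe sets in both directions. Of 12 measured glutathione enzymes, the pathway in which CHAC1 acts, none was called and the median was 0.05. GGCT, another enzyme of this list, was at 10382.3 with PML4 and 10410.7 with the control vector. GCLC, the first enzyme of glutathione synthesis, had a difference of 0.06, with 1 of 3 measured probe sets lower. LAP3, a peptidase, and GPX4, a glutathione peroxidase, had differences of 0.35 and -0.48. Of 11 measured partners of tribbles and genes of ATF4 turnover none was called. BTRC, which targets ATF4 for degradation, had a difference of 0.03, with 1 of 3 measured probe sets lower, and the median was 0.04. SKP1, CUL1 and CDC34, of the ubiquitin ligase machinery, had differences of 0.14, 0.50 and 0.04, and the probe sets of SKP1 and CUL1 split evenly in direction.

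DDIT4, SESN2 and ATF3 also respond to hypoxia or to p53 in other cells. The counts of both lists stand beside 3.21% of all genes called lower, 1.23% called higher and 55.3% lower by any size. Of 24 measured hypoxia genes, VEGFA, a growth factor that ATF4 can also induce, was the only call, at 3588.5 on the PML4 array and 10205.7 on the control array, 2.84-fold lower. Of the 24, 11 were lower and 13 higher, with a median of 0.07. The repressor MXI1 and the prolyl hydroxylase EGLN3 had differences of -0.86 and -0.82, the value of EGLN3 a bound because its PML4 signal was under the floor, and BNIP3, a mitophagy receptor, of -0.39. The glucose transporter SLC2A1, the glycolytic enzymes PGK1 and LDHA and the repressor BHLHE40 had differences of 0.50, 0.08, 0.12 and 0.19. Of 16 measured p53 targets TNFRSF10B was the only call, 10 were lower and 6 higher, and the median was -0.04. CDKN1A (p21) was at 659.5 with PML4 and 903.4 with the control vector, and MDM2 was at 3617.9 with PML4 and 2870.8 with the control vector. GADD45A, which stress also induces without p53, had a difference of -0.67, and CCNG1, a cyclin, of -0.04.

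**Figure D5:**
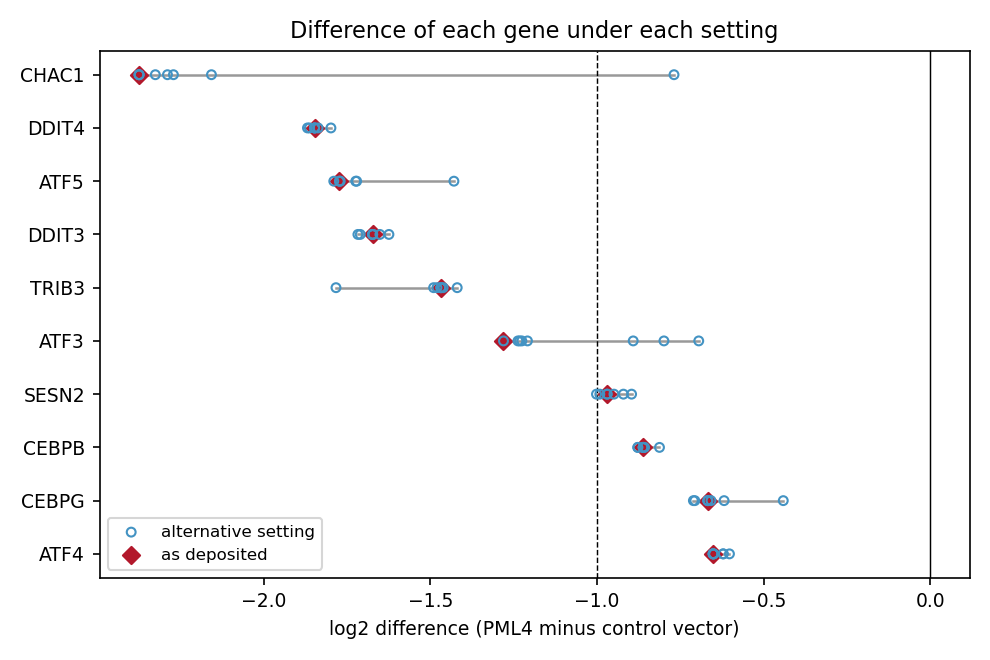
Log2 difference, PML4 minus control vector, of each regulator as deposited (red diamond) and under up to 8 alternative settings (open circles), with the 2-fold threshold dashed. All points are below 0, the points of ATF4, CEBPB, DDIT3 and DDIT4 lie close together, and CHAC1, SESN2 and ATF3 cross the threshold in 1, 1 and 3 alternatives.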

How the data were processed

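Gene expression was measured on 2 arrays, 1 of PML4 and 1 of control vector K562 cells, each with 6 µg of total RNA as input, per the labels' protocols. Deposited values are signal intensities per probe set from MAS5, per the submitters' processing notes. No version or setting of MAS5 is given in the sources used here. The 10 genes and all lists were chosen with earlier results of these data known.

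Of 54613 human probe sets, GEO's array annotation gave 1 gene for 41091, several for 1801 and none for 11721. The gene was named only from probe sets with 1 gene, and 41037 of these matched a current Entrez identifier in RefSeq's annotation of GRCh38.p14. A probe set was measured when above the floor of 72.4 on at least 1 array, which held for 29370. A gene took its measured probe set of highest mean log2 signal. Values were computed with pandas 2.3.3 and the loess (span 0.4) with statsmodels 0.14.6 in Python 3.11.15. The code was run on simulated data with large planted shifts and little noise, which checks the code and not the error of the values. The groups were compared by differences, counts and medians alone, because 1 array per group allows no test, and the precision is limited by the number of arrays. The rule of naming took all 10 genes and, of each other list, up to 4 called genes and the 3 of highest signal; genes outside it were chosen after their values were seen for their known roles. Alternatives were other floors, a pseudocount of 32, median centring, quantile normalization, loess centring, the mean over probe sets, omission of _x_at and _s_at probe sets, and calls at 1.5-fold and 3-fold. The array annotation names no genome build, so coordinates are given only for promoter windows.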

Additional observations from a re-analysis of the deposited data

How the results depend on the processing

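All regulators that could be measured were lower with PML4 as deposited and under the 8 alternatives that can change a value. Calls at 1.5-fold and 3-fold change no value. The floor at the 25th percentile left the value of every regulator as it was. Under the mean over probe sets a gene with 1 measured probe set keeps its value, so part of this agreement was fixed in advance. Of 77 alternative values of single regulators 71 stayed within the gap between probe sets of a gene (0.30 on the log2 scale), 6 moved further and none changed sign. The count at least 2-fold lower was 6 as deposited. With _x_at and _s_at probe sets omitted it was 3, a setting that left 7 of the 10 measured, without ATF5, DDIT4 and SESN2, and took ATF3 under the threshold. A floor at the 75th percentile, higher than the PML4 signals of CHAC1 and ATF3, gave 4. The mean over probe sets gave 5, without ATF3, and loess centring gave 7 by adding SESN2, just past the threshold. The count was 10 at 1.5-fold and 4 at 3-fold. Both counts use the probe set that stands for each gene, and the mean of CEBPG over its 2 probe sets, -0.44, was short of 1.5-fold. The median of -1.37 became -0.93 under the floor at the 75th percentile and -0.86 when _x_at and _s_at probe sets were omitted. Over all genes, 402 lower and 154 higher became 2000 and 667 under a floor at the 25th percentile, 63 and 50 at the 75th, 1484 and 715 at 1.5-fold and 59 and 27 at 3-fold, and lower genes numbered 265 after loess centring. Of 308 values of the other lists 52 moved, all of them counts of calls. The medians of the CHOP target, glutathione, p53 and paralogue lists, all within 0.10 of 0 as deposited, changed sign in 1 or 2 alternatives. Signal near background limits CHAC1 and the dimmer probe sets of ATF3 and ATF5. No paired analysis was possible because each group has 1 array.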
